A study of Drosophila melanogaster with 6 samples.

Results

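The peptidoglycan recognition proteins (PGRPs) are the receptors and enzymes with which flies detect or degrade bacterial cell wall. The 10 genes described here were chosen by name, as the genes with the symbols PGRP-SA, PGRP-SB1, PGRP-SC1a, PGRP-SC2, PGRP-SD, PGRP-LA, PGRP-LB, PGRP-LC, PGRP-LE and PGRP-LF, and all 10 were found among the 15796 genes of the count table. They are 10 of the 13 PGRP genes in that table, and the other 3, PGRP-SB2, PGRP-SC1b and PGRP-LD, are given beside their relatives. RNA came from fat bodies of late 3rd instar Drosophila melanogaster larvae labelled as strain w1118. The 3 control libraries came from larvae heterozygous for the driver R4-Gal4 (R4-Gal4/+). The 3 AKH libraries came from larvae that also carried 1 copy of UAS-AKH (UAS-AKH/+; R4-Gal4/+), so that the fat body driver switched on the gene for adipokinetic hormone, the glucagon-like peptide of insects. The driver is shared by both groups, whereas the UAS insertion is present in the AKH group alone. Nothing in the labels states that replicate libraries were made from different larvae, and p-values therefore reflect library-to-library spread that may be technical.

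Peptidoglycan reaches the immune system of the fly through a pair of pathways. In the Toll pathway, secreted recognition proteins start a protease cascade in the haemolymph that activates the Toll receptor on fat body cells. In the Imd pathway, PGRP-LC at the membrane and PGRP-LE inside the cell bind peptidoglycan and activate the factor Relish, which switches on antibacterial peptide genes such as the diptericins. Other PGRPs are amidases, enzymes that cut peptidoglycan and so lower the amount that reaches the receptors. The fat body is the main organ that makes the peptides released into the haemolymph.

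Akh (FBgn0004552) was at 2.26, 2.45 and 1.82 CPM (counts scaled to library size) in control replicates 1 to 3 and at 2088, 1635 and 1839 CPM in AKH replicates 1 to 3, as the labels require. AkhR, the hormone's receptor, fell from 142 ± 26.8 to 39.8 ± 2.25 CPM (SD, n = 3), and w, the usual transgene marker, rose from 41.4 ± 4.65 to 83.4 ± 1.497 CPM. The libraries held 29803513 to 33150911 counts. The 9 fat body markers, led by larval serum proteins, summed to 341400 to 482200 CPM in every library. The 17 midgut markers, mostly digestive proteases, summed to 1525 to 4724 CPM in the controls and to 5.02, 749 and 3.44 CPM in AKH replicates 1 to 3. Of the 11 haemocyte markers found, edgeR called 1 lower (NimC1) and 0 higher, against 3.77% of all tested genes. NimC1 fell from 5.51 ± 0.893 to 0.984 ± 0.368 CPM (edgeR adjusted p = 0.0116). The groups did not overlap in 1 haemocyte marker that was higher and 3 that were lower, against 24.3% of all tested genes. The haemocyte sum was 368 to 456 CPM in the controls and 334 to 413 CPM in the AKH group. In bulk RNA, fewer cells of a type and less RNA per cell cannot be told apart.

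One member of the family, PGRP-SD, rose with AKH overexpression, by a factor of 3.26 in mean CPM, and was the most abundant PGRP transcript per length in each AKH library, as it was in control replicates 2 and 3. The 2 PGRP-SC genes among the members were lower in all AKH libraries than in all control libraries without passing the test. The same held, at smaller size, for the membrane proteins PGRP-LA and PGRP-LC. Muscle markers also had lower values (median log2 fold change -0.63). They were lower without overlap of the groups in 7 of 8 tested, against 13.5% of all tested genes. By edgeR 2 of them, Mlc1 and Mlc2, fell, while DESeq2 called 4 lower and limma-voom 1. The muscle sum was 63.5 to 79.6 CPM in the controls and 41.6 to 53.0 CPM in the AKH group. Of 4 trachea markers edgeR called 0, DESeq2 2 lower and limma-voom 0. The groups did not overlap in 2 of them, verm and serp, with log2 fold changes of -0.50 and -0.52. The trachea sum was 89.5 to 121 CPM in the controls and 79.2 to 82.1 CPM in the AKH group. The part of muscle or trachea RNA in the PGRP-LA and PGRP-LC values was not tested. PGRP-LB and PGRP-LE varied by at most 1.20 times within a group in RPKM, and PGRP-SB1 varied by up to 41.9 times. All 10 members had enough counts to be tested. Tested with edgeR's quasi-likelihood method, at a Benjamini-Hochberg adjusted p under 0.05 over 10705 genes, 1 of the 10 was higher, 0 were lower and 9 were not called. Over all tested genes 3.77% were called, 1.87% as higher and 1.91% as lower. DESeq2 called 1 member higher and 2 lower (PGRP-SC1a and PGRP-SC2), where it called 8.26% of the genes it tested, and limma-voom called 1 higher and 0 lower. An unadjusted p under 0.05 was reached by 5 members, PGRP-SD and 4 with lower values, where 18% of all tested genes did so. Among the 4, PGRP-SC1a passed the expression filter through the controls alone.

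**Figure D1:**
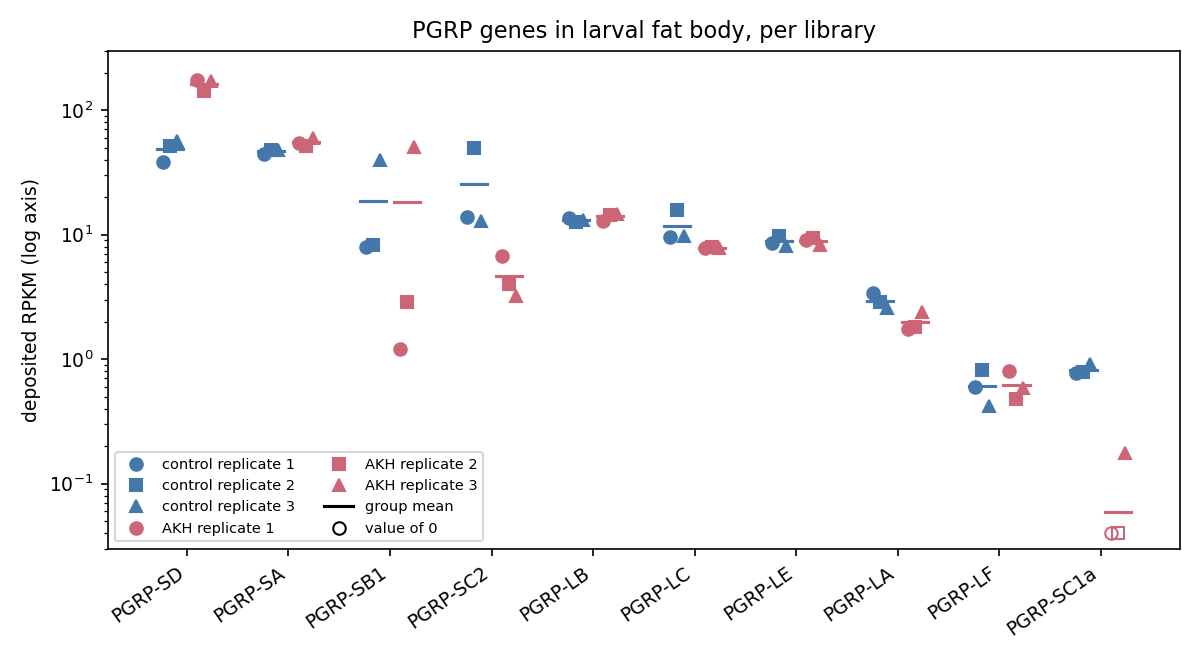
Deposited RPKM (log axis) of the 10 PGRP genes in each library, ordered by mean level; blue symbols are controls, red symbols AKH overexpression, bars group means and open symbols values of 0. PGRP-SD stands between 38.3 and 56.7 RPKM in the controls and between 141 and 175 RPKM with AKH overexpression, and PGRP-SB1 spreads over 1.21 to 50.7 RPKM in the AKH group.

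Levels of different genes were compared in RPKM, the authors' values per kilobase of gene. Over all 6 libraries the members ranked as PGRP-SD (mean 106 RPKM), PGRP-SA (51.0), PGRP-SB1 (18.5), PGRP-SC2 (15.0), PGRP-LB (13.6), PGRP-LC (9.75), PGRP-LE (8.87), PGRP-LA (2.47), PGRP-LF (0.617) and PGRP-SC1a (0.442). Within groups PGRP-SD and PGRP-SA ranked 1 and 2 by mean RPKM in both, whereas PGRP-SC2 ranked 3 in the controls (25.4 RPKM) and 7 in the AKH group (4.65 RPKM). The middle of this order was not fixed, since the ranges of PGRP-SB1, PGRP-SC2 and PGRP-LC over the 6 libraries overlapped each other and those of PGRP-LB and PGRP-LE. PGRP-LB, at 12.7 to 14.7 RPKM, lay above PGRP-LE, at 8.12 to 9.70 RPKM, in all libraries. In the controls PGRP-SA and PGRP-SD overlapped, at 44.7 to 48.2 and 38.3 to 56.7 RPKM. The 10 members together summed to 141, 200 and 192 RPKM in control replicates 1 to 3 and to 270, 234 and 319 RPKM in AKH replicates 1 to 3. PGRP-SD made up 27.5% ± 1.85 of that sum in the controls and 59.7% ± 5.60 in the AKH group (SD, n = 3). Without PGRP-SD the remaining sum was 129 ± 23.3 and 112 ± 31.1 RPKM, a difference smaller than the spread within either group.

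**Figure D2:**
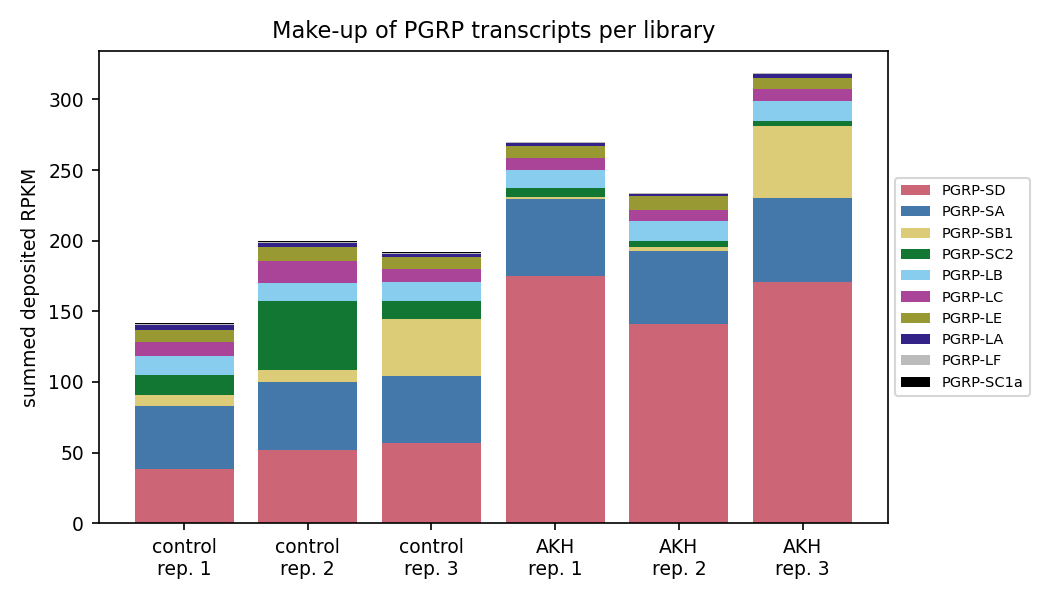
Deposited RPKM of the 10 PGRP genes stacked for each library, with the height as their sum. PGRP-SD fills 25.9% to 29.5% of the bar in the controls and 53.7% to 64.8% in the AKH libraries, PGRP-SC2 is widest in control replicate 2, and PGRP-SB1 in both replicate 3 libraries.

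The secreted recognition proteins without amidase activity are PGRP-SD and PGRP-SA. PGRP-SD (FBgn0035806, chromosome arm 3L) has been linked to sensing in both the Toll and the Imd pathway. It was at 26.6, 34.4 and 46.8 CPM in control replicates 1 to 3 and at 127, 94.3 and 130 CPM in AKH replicates 1 to 3. Every AKH library lay above every control library, and the lowest AKH value was above the highest control value by more than the range of the controls. The log2 fold change was 1.70 (SE 0.23, 95% interval 1.14 to 2.27, edgeR adjusted p = 0.0158), and PGRP-SD ranked 181 by p and 112 by log2 fold change from the top of all tested genes. The exact two-sided permutation p for PGRP-SD was 0.1, and no smaller value can be had with 3 libraries a group. The call was lost without control replicate 1 (adjusted p = 0.0511), control replicate 2 (0.0553), AKH replicate 1 (0.0734) or AKH replicate 3 (0.0581), with the log2 fold change at 1.52 to 1.94 over all 6 such fits.

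In the later reference annotation the exons of PGRP-SD overlap those of CG7492 on the other strand, and its gene body overlaps CG32373 on the same strand without shared exons. No source used here gives the strand setting of the counting. CG7492 was at 30.3 ± 1.44 CPM in the controls and 31.9 ± 2.67 CPM in the AKH group (edgeR adjusted p = 0.718). CG32373 also rose, with a log2 fold change of 1.46 (SE 0.20, edgeR adjusted p = 0.0152), from 2.23 ± 0.405 to 6.14 ± 1.06 CPM. The part of shared reads in the PGRP-SD values was not tested. Both neighbours were named after their values were seen.

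PGRP-SA (FBgn0030310, X chromosome), which circulates in the haemolymph and detects the peptidoglycan of Gram-positive bacteria upstream of Toll, was at 48.8, 50.4 and 61.7 CPM in the controls. It was at 62.5, 54.1 and 71.0 CPM in the AKH group. The groups overlapped through control replicate 3 and AKH replicate 2, and the log2 fold change was 0.22 (95% interval -0.11 to 0.55, edgeR adjusted p = 0.468). In RPKM, which scales by library total alone, the groups did not overlap (44.7 to 48.2 against 51.5 to 59.5), and edgeR with that scaling gave a log2 fold change of 0.24 that was also not called.

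The amidases of the PGRP-SC group degrade peptidoglycan and are best known from the larval and adult gut, where they dampen the Imd response. PGRP-SC2 (FBgn0043575, arm 2R) was at 7.42, 25.2 and 8.25 CPM in control replicates 1 to 3 and at 3.77, 2.06 and 1.88 CPM in AKH replicates 1 to 3. The groups did not overlap, and control replicate 2 stood at more than 3 times the other controls. The log2 fold change was -2.40 (SE 0.57, 95% interval -3.79 to -1.03) with an edgeR adjusted p = 0.0835, which was not called. Without control replicate 2 it was -1.62 (adjusted p = 0.0726), and DESeq2 gave -2.41 with an adjusted p = 0.00013.

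PGRP-SC1a (FBgn0043576, arm 2R) was near the detection limit, with 13, 13 and 16 counts in the controls and 0, 0 and 3 counts in the AKH libraries. A count of 0 allows up to 0.0905 to 0.101 CPM in these libraries, and the controls stood at 0.419, 0.403 and 0.584 CPM. The 42 control counts against 3 AKH counts stood at a depth-scaled ratio of 14.5 (exact 95% interval 4.62 to 73.0, covering counting error only). PGRP-SC1a passed the expression filter through the controls alone, so its place among the members with lower values was partly set by the filter. Its edgeR log2 fold change of -3.68 had an adjusted p of 0.155 and moved to -6.89 without AKH replicate 3, the AKH library with its 3 counts, and to -3.12 without AKH replicate 1 or 2. DESeq2 called it (adjusted p = 0.0406), and so did limma on log2(RPKM + 1) with -0.79 on that scale (0.0112) and on log2(RPKM + 0.1) with -2.72 (0.0256). PGRP-SC1b, a close copy of PGRP-SC1a, had 7, 7 and 8 counts in the controls and 0, 1 and 3 in the AKH group, and was not tested. No source used here gives how reads matching both copies were counted. If such reads were dropped, both genes would be undercounted, and this was not tested.

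The summed midgut markers, like the PGRP-SC genes, were lower in every AKH library than in every control. This was so of 7 of 12 tested midgut genes, against 13.5% of all tested genes, while alphaTry, epsilonTry, Jon99Ci, Jon74E and LysE overlapped. Among the lower genes, betaTry, deltaTry, Jon25Bii, Jon65Aiii, LysB and LysD met the expression filter in every control but not in every AKH library. The midgut shares given here were therefore partly set by the filter. Control replicate 2, the library highest in PGRP-SC2, was also highest in midgut markers, at 4724 CPM summed. In that library Jon65Aiv and Jon65Aiii, the highest of these markers, held 2495 and 883 CPM. AKH replicate 2 held 749 CPM of midgut markers, against 5.02 and 3.44 CPM in AKH replicates 1 and 3. It had 0 counts of PGRP-SC1a, and its 2.06 CPM of PGRP-SC2 lay between the 3.77 and 1.88 CPM of the other AKH libraries. Control replicate 3, with 1525 CPM of midgut markers, had 8.25 CPM of PGRP-SC2 and 0.584 CPM of PGRP-SC1a. Of 17 midgut markers, 1 to 5 had no count in a given library. Of the 12 tested edgeR called 0, and 5 had an unadjusted p under 0.05, against 18% of all tested genes. DESeq2 called 2 of them lower and limma-voom 0. The part of midgut RNA in the lower PGRP-SC values was not tested.

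**Figure D3:**
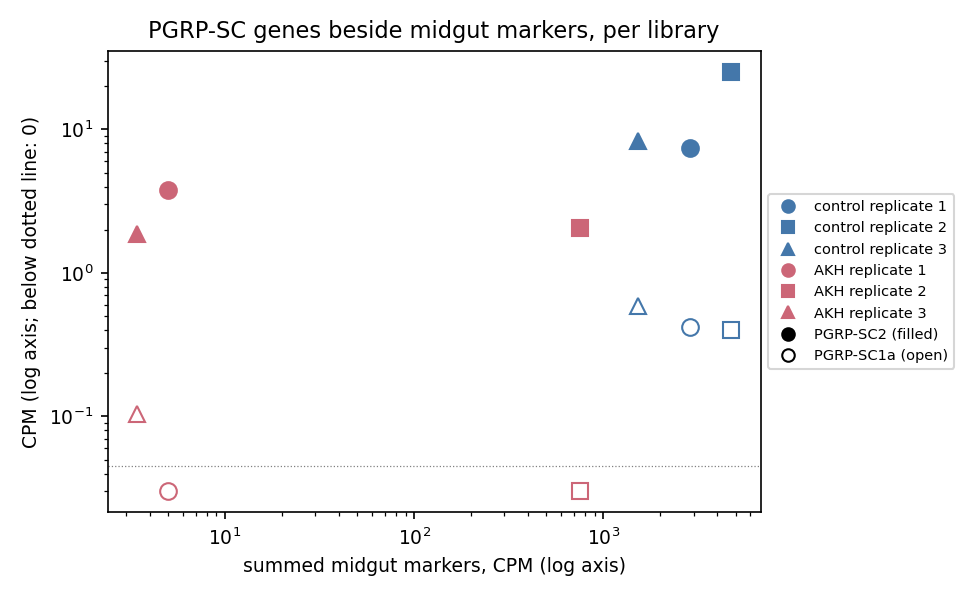
CPM of PGRP-SC2 (filled) and PGRP-SC1a (open) against the summed CPM of 17 midgut markers, 1 symbol per library, both axes logarithmic; symbols under the dotted line are values of 0. AKH replicate 2 holds 749 CPM of midgut markers, of which Jon65Aiv and Jon65Aiii hold 464.5 and 200 CPM, and has PGRP-SC2 at 2.06 CPM and PGRP-SC1a at 0. AKH replicates 1 and 3, with under 6 CPM of these markers, have PGRP-SC2 at 3.77 and 1.88 CPM.

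The other amidases are PGRP-LB and PGRP-SB1. PGRP-LB (FBgn0037906, arm 3R), which limits the Imd response in the gut and in the body cavity, was at 14.5, 12.98 and 16.7 CPM in the controls and at 14.4, 14.7 and 17.1 CPM in the AKH group. The groups overlapped, and the log2 fold change was 0.07 (95% interval -0.23 to 0.36, edgeR adjusted p = 0.839).

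PGRP-SB1 (FBgn0043578, arm 3L), a secreted amidase that can itself kill bacteria and is induced through Imd, varied more between replicates than between group means. It was at 4.81, 4.71 and 28.5 CPM in control replicates 1 to 3 and at 0.761, 1.66 and 33.3 CPM in AKH replicates 1 to 3. Replicate 3 was high in both groups, and group means were 12.7 ± 13.7 and 11.9 ± 18.5 CPM. The log2 fold change was -0.09 with a 95% interval of -3.53 to 3.35 (edgeR adjusted p = 0.983), the widest of the 10. In the 4 libraries other than replicate 3 the gene was lower in both AKH libraries than in both controls, with a log2 fold change of -1.97 (edgeR adjusted p = 0.130) in a fit chosen after seeing the data. Its highest over lowest RPKM was 4.99 within the controls and 41.9 within the AKH group, where the median such ratio over all tested genes in CPM was 1.25 and the 90th percentile 4.07.

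Some antibacterial peptide genes of the Imd pathway had the same high libraries. DptA, a diptericin, was at 2.42, 7.34 and 37.4 CPM in the controls and 1.80, 5.74 and 39.9 CPM in the AKH group. DptB was at 1.77, 9.41 and 28.2 CPM and at 0.487, 1.48 and 30.4 CPM, and the attacin genes AttA and AttB also peaked in both replicate 3 libraries. These 4 genes were named after their values were seen. CecC, Dro, Mtk and Drsl5, also tested, were not highest in replicate 3 of both groups. Dro was at 15.9, 6.44 and 6.64 CPM in control replicates 1 to 3, and CecC at 7.43, 4.32 and 1.46 CPM in AKH replicates 1 to 3. Replicate 3 was the highest library of both groups in 6 of 10 tested peptide genes and in 5 of the 10 PGRP members in CPM, against 15.3% of all tested genes. In the deposited RPKM these counts were 5 of 10 and 2 of 10 (PGRP-SB1 and PGRP-SC1a), against 2.56% of all tested genes. The labels give no date or batch for replicate 3, and what set these libraries apart was not tested.

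**Figure D4:**
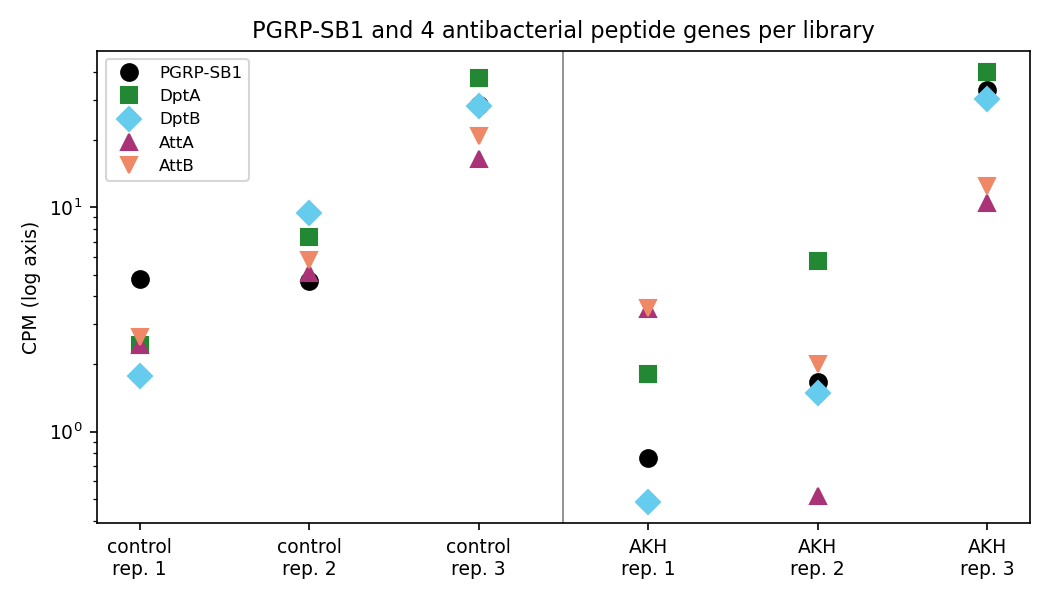
CPM (log axis) of PGRP-SB1 and of the antibacterial peptide genes DptA, DptB, AttA and AttB in each of the 6 libraries, with a line between the groups. All 5 genes are highest in replicate 3 of both groups; PGRP-SB1 reaches 28.5 and 33.3 CPM there and 0.761 to 4.81 CPM elsewhere.

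PGRP-SB2, the gene next to PGRP-SB1 in the reference annotation and encoding a related secreted protein, showed a different pattern. It had 235 counts in control replicate 2, 1 count each in control replicate 3 and AKH replicate 2, and 0 in the other 3 libraries. Such a pattern rests on 1 library, and the gene was not tested.

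The receptors of the Imd pathway are PGRP-LC and PGRP-LE, with PGRP-LF and PGRP-LA beside them. PGRP-LC (FBgn0035976, arm 3L), the main membrane receptor, was at 17.3, 27.3 and 20.9 CPM in control replicates 1 to 3 and at 14.9, 13.8 and 15.6 CPM in AKH replicates 1 to 3. The AKH libraries lay below all controls and close together, and control replicate 2 was the highest. The log2 fold change was -0.56 (SE 0.17, 95% interval -0.97 to -0.15) with an edgeR adjusted p = 0.154, which was not called. Without control replicate 2 it was -0.39 (adjusted p = 0.193). Counts were per gene, so the splice forms of PGRP-LC with different ectodomains were not resolved.

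The steroid ecdysone is known to raise PGRP-LC in flies, and most ecdysone response genes on the list were highest in control replicate 2. Of 11 found, 8 were highest there among the 6 libraries, while EcR (70.98 CPM) and ftz-f1 (7.49 CPM) were lowest there. Together they summed to 516 CPM there and to 340 to 377 CPM in the other 5 libraries. Hr4, a nuclear receptor gene of the early-late class, named after its values were seen, was at 62.6 CPM in control replicate 2 and at 1.53 to 6.71 CPM elsewhere. EcR, the ecdysone receptor and the most abundant gene of the list per length, was at 16.3 ± 1.48 and 18.8 ± 1.17 RPKM. Of 10 tested edgeR called 0, and 1 had an unadjusted p under 0.05, against 18% of all tested genes. DESeq2 and limma-voom called 0 of the ecdysone response genes. They had a median log2 fold change of -0.17 against 0.02 over all tested genes. The part of larval stage in the PGRP-LC values was not tested.

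PGRP-LE (FBgn0030695, X chromosome), the intracellular receptor, overlapped between groups. Its values were 14.0, 15.0 and 15.6 CPM in the controls and 15.3, 14.6 and 14.7 CPM in the AKH group. The log2 fold change was 0.00 (SE 0.07) and its 95% interval, -0.18 to 0.18, was the narrowest of the 10.

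PGRP-LF (FBgn0035977, arm 3L), a membrane protein without a signalling domain that holds PGRP-LC inactive, was scarce, at 18 to 36 counts a library. Its group means were 0.818 ± 0.186 and 0.845 ± 0.246 CPM, and the interval of the log2 fold change ran from -0.86 to 0.95. Exons of PGRP-LF overlap those of UGP on the other strand in the reference annotation, and UGP was at 97 to 166 CPM, and the part of shared reads in the PGRP-LF values was not tested. PGRP-LA (FBgn0035975, arm 3L), a membrane protein reported to promote Imd signalling in barrier tissues, was at 4.68, 3.81 and 4.20 CPM in the controls and at 2.496, 2.39 and 3.62 CPM in the AKH group. The groups did not overlap but came close, at 3.81 and 3.62 CPM, and the log2 fold change of -0.58 (95% interval -1.07 to -0.09) had an edgeR adjusted p = 0.209. PGRP-LA, PGRP-LC and PGRP-LF lie side by side on one strand of arm 3L. The first of them and PGRP-LC were lower in every AKH library, whereas PGRP-LF overlapped. PGRP-LD was at 8 to 16 counts a library and was not called. Its exons overlap those of Pmi on the same strand and of Cralbp and asRNA:CR45026 on the other strand in the reference annotation. Pmi had 0 counts in every library, and the part of shared reads in the PGRP-LD values was not tested.

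**Figure D5:**
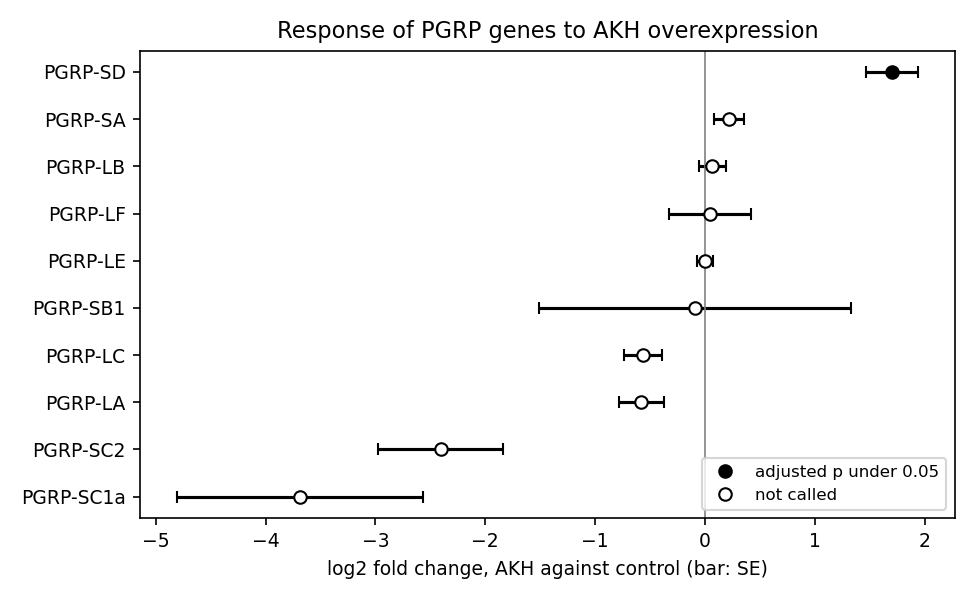
Log2 fold change of each member, AKH overexpression against control, from edgeR, with bars of 1 SE over 3 libraries a group; the filled symbol passed an adjusted p of 0.05. PGRP-SD stands alone to the right at 1.70, PGRP-SC1a and PGRP-SC2 to the left at -3.68 and -2.40 without passing, and PGRP-SB1 has the widest bar, with an SE of 1.42.

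Counting directions over the family, the groups did not overlap in 5 of 10 members, 1 higher (PGRP-SD) and 4 lower (PGRP-SC1a, PGRP-SC2, PGRP-LA and PGRP-LC). Over all tested genes the groups did not overlap in 24.3%, and 13.5% were lower without overlap. PGRP-SC1a passed the expression filter through the controls alone, and without it PGRP-SC2, PGRP-LA and PGRP-LC remain as lower. The median log2 fold change of the members was -0.04 beside 0.02 over all tested genes. Amidases and receptors were found both among the members with lower values and among those that overlapped.

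Of 20 tested Imd pathway genes edgeR called 0, and 4 had an unadjusted p under 0.05, against 18% of all tested genes. DESeq2 called 1 lower and limma-voom 0. The groups did not overlap in 7 of the 20, 1 higher and 6 lower, against 24.3% of all tested genes, and the median log2 fold change was -0.06. The most abundant per length was eff, a ubiquitin-conjugating enzyme, at 201 ± 18.8 and 214 ± 3.51 RPKM. Rel, which encodes Relish and was named after its values were seen, was at 56.5, 56.2 and 51.5 CPM in the controls and at 44.3, 47.9 and 44.1 CPM in the AKH group (log2 fold change -0.27, edgeR adjusted p = 0.115). The groups did not overlap in Rel, although the difference was small.

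Of 20 tested Toll pathway genes 2 rose, 1 fell and 17 were not called, where edgeR called 3.77% of all tested genes. Their median log2 fold change was 0.05. The groups did not overlap in 8 that were higher and 4 that were lower, against 24.3% of all tested genes. An unadjusted p under 0.05 was reached by 10, against 18% of all tested genes. DESeq2 called 4 higher and 3 lower, and limma-voom 2 and 1. Gprk2, a kinase needed for Toll signalling, rose by 0.90 on the log2 scale (SE 0.09, edgeR adjusted p = 0.00527), with means of 45.5 ± 4.46 and 85.1 ± 3.65 CPM. The serpin gene nec (necrotic), an inhibitor of the protease Persephone upstream of Toll, rose from 69.7 ± 9.45 to 147 ± 6.08 CPM (edgeR adjusted p = 0.00646). The modular protease gene modSP, which acts after PGRP-SA and upstream of Toll, fell by 0.39 on the log2 scale (SE 0.07, edgeR adjusted p = 0.0443), from 46.1 ± 2.99 to 35.2 ± 1.20 CPM.

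Among antimicrobial peptide genes 26 of 27 listed were found. Drs (drosomycin) was not matched to a gene of the count table, so the ranks and sums here leave it out. Of the 26, 10 had enough counts to be tested. By edgeR 0 of these 10 were called, and 2 had an unadjusted p under 0.05, against 18% of all tested genes. DESeq2 called 1 higher and limma-voom 0. AttC was the most abundant of those found per length over all 6 libraries, at a mean of 35.5 RPKM. In the AKH group, at 9.67 RPKM, it was below others such as DptA at 30.8 RPKM. AttC was at 63.2, 35.8 and 69.9 CPM in the controls and at 2.19, 2.21 and 22.7 CPM in the AKH group. The groups did not overlap, replicate 3 was highest in both in CPM, and the log2 fold change of -2.65 (SE 0.97) had an edgeR adjusted p = 0.222. CecC went the other way, at 0.871, 1.39 and 1.20 CPM in the controls and at 7.43, 4.32 and 1.46 CPM in the AKH group. Its log2 fold change was 1.93 (SE 0.58, edgeR adjusted p = 0.150). Of the 10 tested, the groups did not overlap in 1 higher (CecC) and 1 lower (AttC), against 24.3% of all tested genes. The 26 genes summed to 91.8, 121 and 188 CPM in control replicates 1 to 3 and to 25.0, 31.0 and 137 CPM in AKH replicates 1 to 3.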

How the data were processed

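RNA was extracted with Trizol and made into libraries with an Illumina TruSeq kit, per the labels' protocols. The authors deposited raw read counts per gene and RPKM values. Bowtie2 2.0.6, TopHat2 2.0.9, HTSeq 0.5.4p3, DESeq 1.10.1 and build BDGP5 are named in the submitters' processing notes, without roles. No source used here gives the annotation release or the strand setting. The deposited RPKM equal counts divided by library total and 1 length per gene (checked in 7684 genes, largest relative spread 1.04e-07). The reference annotation is of a later build, so it served for names, arms, strands and neighbours only, and no coordinates are given.

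Counts were tested in edgeR 4.0.16 (R 4.3.3) with the default filter, TMM scaling and the quasi-likelihood F test on all 6 libraries without covariates, and Benjamini-Hochberg adjustment over all tested genes. CPM use TMM-scaled totals, and log2 CPM a prior count of 2. Intervals of log2 fold changes are 95%, and intervals of count ratios are exact binomial. Alternatives were other scalings and filters, DESeq2 1.42.0, limma-voom (limma 3.58.1), a block for replicate number, fits without chosen libraries, and limma on log2 RPKM with a pseudocount of 1 or 0.1. The edgeR, DESeq2 and limma-voom steps were tested on simulated data.

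The members and lists were chosen with earlier results of these data known. Of 178 list names 167 were found. Named were all PGRP genes, Akh, AkhR and w, and from each pathway list up to 3 called genes with the smallest p or else the most abundant per length; other names were chosen after their values were seen. The 3 replicate libraries of a group differed beyond sampling noise (chi-square per degree of freedom 36.8 to 88.5).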

Additional observations from a re-analysis of the deposited data

How the results depend on the processing

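The direction of PGRP-SA, PGRP-SC1a, PGRP-SC2, PGRP-SD, PGRP-LA and PGRP-LC held under all alternatives that gave a value. PGRP-SD was called under every alternative scaling, filter and tool, with adjusted p up to 0.0178, but fits without 1 library called 0 to 1 member higher. The number of changed genes was 404, with 986 under DESeq2, and 144 to 479 without 1 library (189 without control replicate 1, 144 without AKH replicate 1, 261 without AKH replicate 2 and 182 without AKH replicate 3). Members called lower were 0, with 2 under DESeq2 and 1 under limma on log2(RPKM + 1) or log2(RPKM + 0.1). Without both replicate 2 libraries, added after seeing the data, 227 genes and 0 members higher were called (PGRP-SD 1.81, adjusted p = 0.0616). Without both replicate 3 libraries it was 255 genes and PGRP-SD was still called (1.86, adjusted p = 0.0337).

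Values near 0 changed sign. PGRP-LE, at 0.00, was at -0.0069 with RLE scaling, -0.0048 with DESeq2, -0.0077 without a filter and -0.0517 to 0.0379 without 1 library. Without 1 library PGRP-LB was at -0.0353 to 0.167, PGRP-LF at -0.184 to 0.237 and PGRP-SB1 at -3.38 to 1.32. Without both replicate 3 libraries PGRP-LF was at -0.0806, and without both replicate 2 libraries PGRP-SB1 at 0.024. DESeq2 gave no p for PGRP-SB1, and a filter of 1 CPM in 3 libraries removed PGRP-LF and PGRP-SC1a.

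Same-numbered libraries deviated together for replicates 2 and 3 (correlations of 0.600 and 0.502) but not for replicate 1 (-0.369), and control replicate 1 correlated best with AKH replicate 3 (0.541), so the numbers are not taken to pair the libraries. With the replicate block 430 genes and 1 member were called (PGRP-SD 1.73, adjusted p = 0.0184). Low counts limit PGRP-SC1a, PGRP-SC1b, PGRP-LF and PGRP-LD, which had at most 36 counts in any library.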

Other observations

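Among all 10705 tested genes, replicate 3 stood at least 4-fold above both other libraries in both groups in 2 genes, PGRP-SB1 and DptA. The 4-fold minimum was chosen after seeing the data. PGRP-SB1 was at 28.5 CPM in control replicate 3 and 33.3 CPM in AKH replicate 3, and DptA at 37.4 and 39.9 CPM. At a minimum of 3-fold AttB joined them, so the count depends on the minimum. All 3 are known targets of the Imd pathway.

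In all, 29 of the 15796 genes had at least 100 counts in control replicate 2 and at most 5% of that count in any other library, a rule also set after seeing the data, and PGRP-SB2 was one of them. The others included Peritrophin-15a (97.1 CPM in that library and 0.0604 to 2.77 CPM elsewhere), Peritrophin-15b (38.4 CPM and at most 0.335 CPM), Muc96D (161 CPM and at most 0.484 CPM) and Muc26B (14.5 CPM and at most 0.0365 CPM). Peritrophins are chitin-binding proteins of the lining of the gut. The antimicrobial peptide gene Drsl5 was at 45.9 CPM in control replicate 2 as well, with 0.0968 to 4.29 CPM in the other libraries.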
